A study of Rattus norvegicus with 6 samples.

Results

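Integrins are the receptors by which cells hold on to the extracellular matrix, and focal adhesion adaptors are the proteins that tie them to the actin cytoskeleton. The members described here are the 38 genes of the deposited expression table, out of 37991 listed, whose symbol is that of an integrin alpha or beta subunit, of the integrin-like gene Itgbl1, or of 1 of 11 adaptors (Tln1, Tln2, Vcl, Zyx, Fermt1, Fermt2, Fermt3, Ptk2, Ilk, Pxn and Parva). They were chosen by symbol and not by their values, although earlier results of these data were known at the time. Of them, 27 are integrin genes, Itgbl1 included. RNA-seq was performed on the healing Achilles tendon of male Sprague-Dawley rats, an outbred strain, whose tendon was cut through (tenotomy) at 8 weeks of age. The labels add that it was repaired, while the study's methods describe closing the skin only. In the PM group (3 samples) the animals breathed fine particulate matter (PM) from a coal-fired plant in a closed chamber, 3 times a week for 6 weeks. The non-PM group (3 samples) had the same operation without this exposure. The sources used here do not say whether it was placed in the chamber without particles. Each sample was a block of the healed tendon with whatever tissue it contained, so fewer cells of a type and less RNA per cell cannot be told apart.

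An integrin is a pair of one alpha and one beta subunit that reaches through the cell membrane. The pairing decides the ligand: subunits alpha 1, 2, 10 and 11 bind collagens with beta 1, subunits alpha 3, 6 and 7 bind laminins, and subunits alpha 5, 8 and v recognize the RGD (arginine-glycine-aspartate) motif of proteins such as fibronectin. Inside the cell, talins and kindlins bind the beta tail and switch the receptor on, vinculin and zyxin strengthen the link to actin under load, and focal adhesion kinase, paxillin and the complex of integrin-linked kinase with parvin pass on the signal. In tendon this machinery couples the tenocyte to its collagen fibrils.

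The libraries held between 46357986 and 62298837 counts, and the members together took 0.449, 0.326 and 0.417% of counts in PM replicates 1 to 3, against 0.335, 0.413 and 0.283% in non-PM replicates 1 to 3 (95% Wilson intervals at most 0.0037 percentage points wide, for counting error only). These are shares of raw totals, without the library scaling factors (TMM) used for the levels below. Those factors were 0.791 for non-PM replicate 3 and 0.965 to 1.158 elsewhere. The 8 tenocyte markers were all detected, with a summed level of 33200 to 69400 CPM (counts scaled to a common library size) in the PM group vs. 6810 to 64200 CPM in the non-PM group. Non-PM replicate 3 stood apart, with the lowest tenocyte sum (6810 CPM) and the highest skeletal muscle sum (143000 CPM, elsewhere 20800 to 82800 CPM). It was the library with the lowest CPM for 21 of the 38 members, while 36.2% of all genes tested had their lowest value there. Non-PM replicate 2 held 800 CPM of keratinocyte markers, where the other libraries had 14.6 to 25.3 CPM.

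The tendons expressed a broad set of adhesion genes. FPKM, the deposited value scaled by transcript length and library size, allows levels to be compared between genes. By mean FPKM over the 6 libraries 18 members were at 10 or more, 17 between 1 and 10, and 3 below 1. Itgb1, the beta subunit shared by the collagen, laminin and fibronectin receptors, was the highest member, with 203, 130 and 158 FPKM in PM replicates 1 to 3 and 124, 163 and 99.5 FPKM in non-PM replicates 1 to 3. The next in order of mean FPKM were the scaffold kinase Ilk (77.4), kindlin 2, Fermt2 (70.6), Itgbl1 (69.0) and Zyx (51.9). At the other end stood Itgad (0.0542), an alpha subunit of leukocytes, and Fermt1 (0.15), the kindlin of epithelia.

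**Figure D1:**
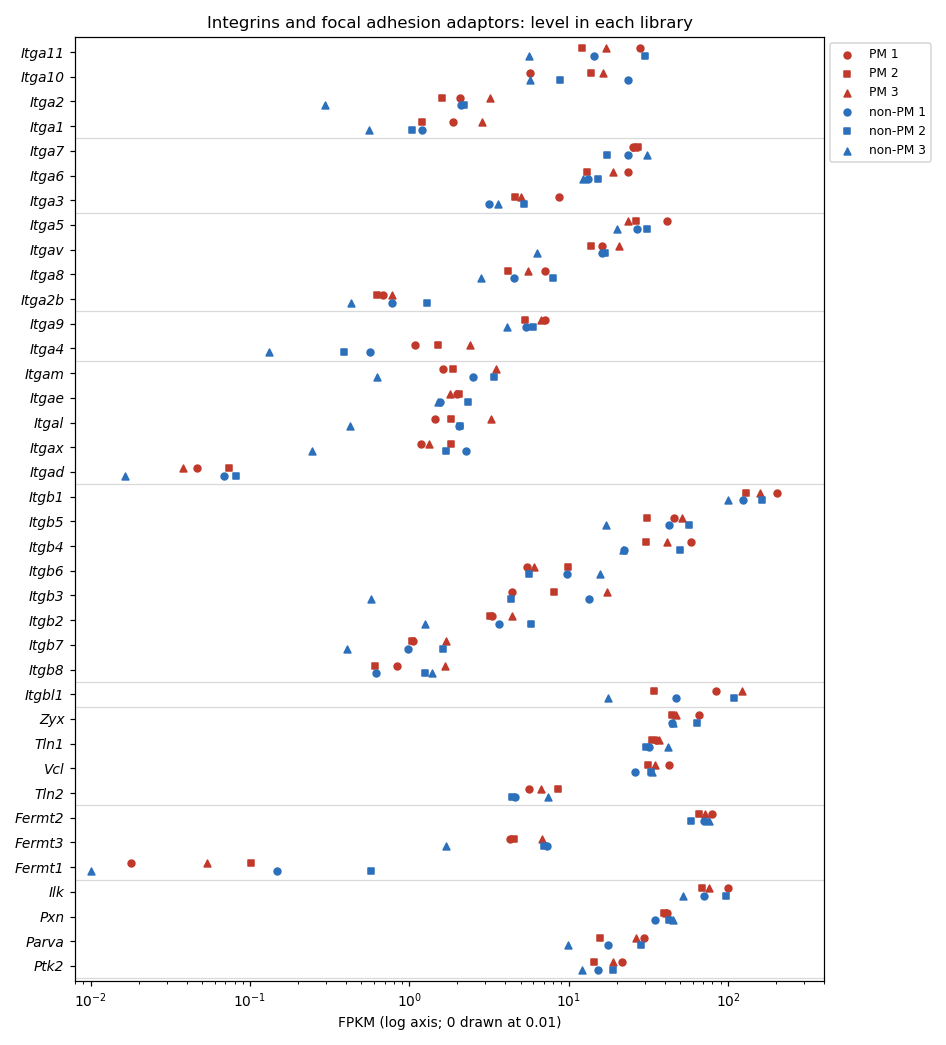
FPKM of each member (rows, grouped by role, from collagen-binding alpha subunits at the top to signalling adaptors at the bottom) in each of the 6 libraries, on a log axis. The 3 PM libraries are red and drawn above the 3 non-PM libraries in blue. The non-PM replicate 3 triangle is the leftmost point for many alpha and leukocyte subunits, and Itgb1 lies between 99.5 and 203 FPKM.

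Itgb1 led the 8 beta subunits in both groups. It accounted for 59.9 ± 3.57% of the summed beta FPKM in the PM group vs. 58.8 ± 3.53% in the non-PM group (SD, n = 3 each). Itgb5, which pairs with alpha v, followed with 15.7 ± 2.25% vs. 16.7 ± 5.14%, and Itgb4, the partner of alpha 6 in hemidesmosomes and in nerve and vessel sheaths, with 15.6 ± 2.15% vs. 13.8 ± 3.45%. Of the 18 alpha subunits the fibronectin receptor subunit Itga5 took the largest mean share in the PM group, 19.4 ± 4.43%, vs. 19.9 ± 1.23% in the non-PM group. The muscle laminin receptor subunit Itga7 took 17.1 ± 2.96% vs. 20 ± 11%, and the collagen receptor subunit Itga11 took 12 ± 3.67% vs. 11.9 ± 7.08%. Each of these group differences was smaller than the SD of at least one group.

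**Figure D2:**
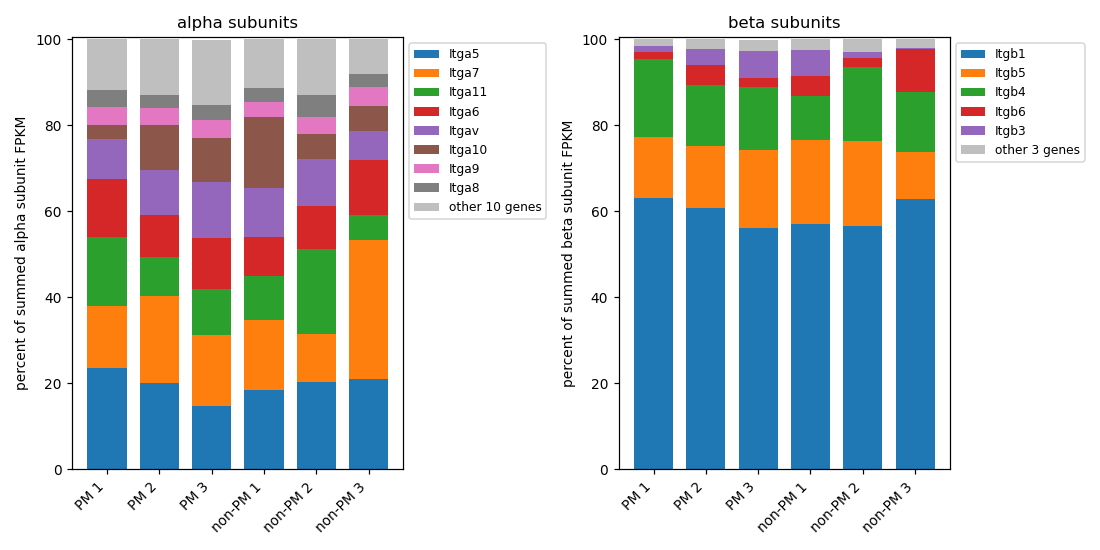
Share of the summed FPKM of the 18 alpha subunits (left) and the 8 beta subunits (right) taken by the main genes in color and by the rest together in light gray, in percent, for each library as a stacked bar from 0 to 100. Itgb1 takes 56.0 to 63.0% of beta FPKM in all 6 libraries, while Itga7 takes 32.3% of alpha FPKM in non-PM replicate 3 and 11.3 to 20.3% elsewhere.

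The question put to these data was which adhesion genes differed between healing tendons with and without PM exposure. No member passed the edgeR quasi-likelihood test with Benjamini-Hochberg adjustment over all 18134 genes tested (adjusted p of at least 0.942). The same was true of all genes, of which 0% passed, although 537 had an unadjusted p under 0.05 and DESeq2 called 13 genes, none of them a member. The study's methods use a relaxed criterion, which asks for an unadjusted p under 0.05 and a change of 1.2-fold or more. By it 1 of the 38 members was higher in the PM group and 0 were lower. That criterion took 1.47% of all genes tested as higher and 1.49% as lower, so that 1 member in 38 lay near the background. The groups did not overlap in CPM for 3 members, all higher in the PM group (Itga1, Itga3 and Itga9), and for 0 members lower, where 4.77% of all genes lay apart as higher and 4.91% as lower. In FPKM the groups overlapped for Itga3 and Itga9. The log2 fold change was positive for 26 members and negative for 12. Its median was 0.12, beside -0.00 over all genes tested, and leaving out 1 library at a time moved it between 0.09 and 0.23. For the 27 integrin genes the median was 0.21, with 21 above 0, and for the 11 adaptors it was -0.06, with 5 above 0. This order turned without non-PM replicate 3, where the integrin median was 0.08 with 16 above 0 and the adaptor median 0.11 with 7 above 0. The values also shifted in a fit on FPKM. With limma on log2(FPKM + 1), 33 members were above 0, beside a median of 0.05 over all genes. There the integrin median was 0.26 with 23 above 0 and the adaptor median 0.11 with 10 above 0. FPKM was used as deposited, without the TMM factors that scale CPM (0.791 for non-PM replicate 3, 0.965 to 1.158 elsewhere). The part of unit, scaling and test in this shift was not tested.

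**Figure D3:**
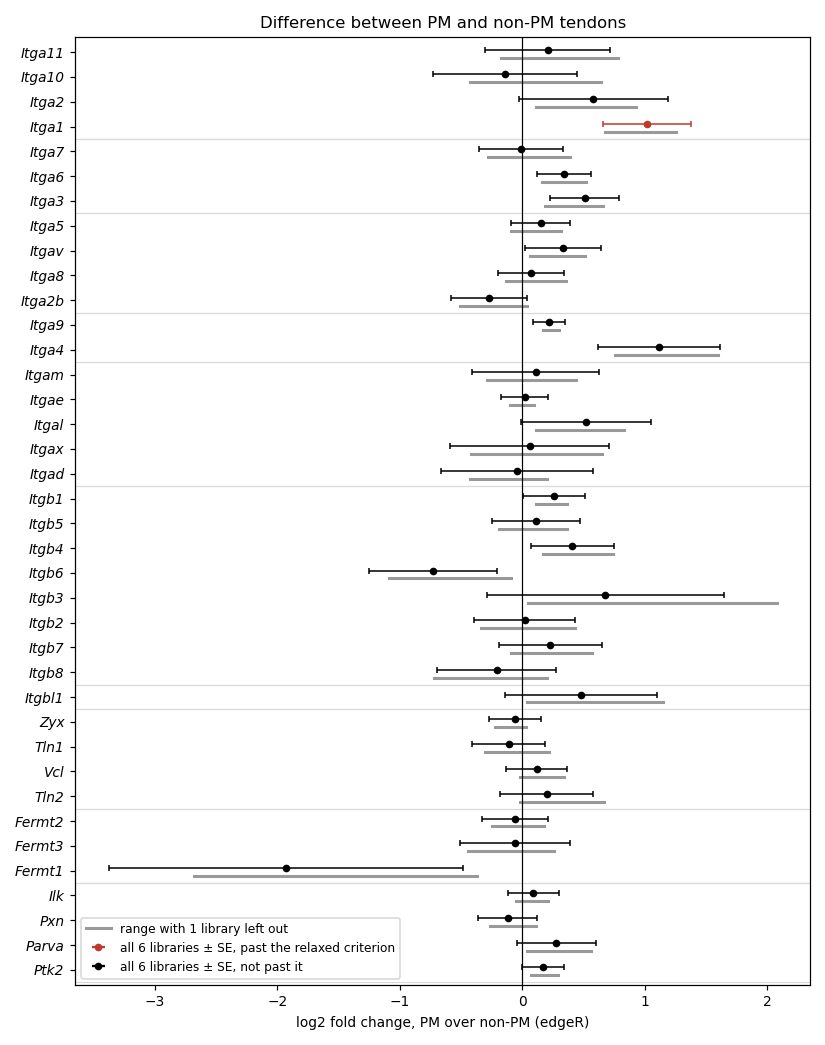
Log2 fold change of each member, PM over non-PM, from edgeR on counts (points, with the standard error as bars), grouped by role, and below each point a grey bar for the range of the value with 1 library left out. Itga1 (red, 1.02 ± 0.36) is the only member past the relaxed criterion, and the grey bars of 22 members cross 0.

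Itga1, the alpha 1 subunit of a receptor for collagens, including the type IV collagen of basement membranes, was the member higher by the relaxed criterion. Its levels were 7.81, 5.49 and 12.1 CPM in PM replicates 1 to 3, against 5.32, 4.07 and 3.10 CPM in non-PM replicates 1 to 3. All PM values lay above all non-PM values, with PM replicate 2 just above non-PM replicate 1. The log2 fold change was 1.02 ± 0.36 (SE, 3 samples per group), with an unadjusted p of 0.0255 and an adjusted p of 0.942 in edgeR, which ranked it 211 of 18134 by p. With PM replicate 3 left out the call ended (0.68, unadjusted p = 0.0943, edgeR). It ended also with non-PM replicate 2 left out (1.01, unadjusted p = 0.0558) or replicate 3 of that group (0.84, unadjusted p = 0.0654), and with the replicate number as a block (0.97, unadjusted p = 0.0685, edgeR). At 140 to 689 counts per library this is one of the scarcer integrin transcripts of the tissue, with 1.98 ± 0.827 FPKM in the PM group vs. 0.928 ± 0.333 FPKM in the non-PM group. Endothelial and smooth muscle cells carry alpha 1, and the summed endothelial markers were at 1660, 1090 and 1110 CPM in PM replicates 1 to 3 vs. 981, 1060 and 1060 CPM in non-PM replicates 1 to 3, with 9 of 10 markers above 0 in log2 fold change and 2 higher by the relaxed criterion. Itga1 was highest in PM replicate 3 and the endothelial sum in PM replicate 1, while the smooth muscle and pericyte sum was 3810, 3780 and 2960 CPM vs. 3570, 2590 and 6480 CPM, with 10 of 12 markers above 0 and 2 higher by the relaxed criterion. The smooth muscle and pericyte list shares Des with the skeletal muscle list, whose sum was also highest in non-PM replicate 3. Of the adipocyte markers 9 of 9 were above 0 (median 0.98 on the log2 scale) and 2 were higher by that criterion. They summed to 712, 997 and 1690 CPM in PM replicates vs. 565, 844 and 592 CPM in non-PM replicates, and PM replicate 3 was the highest library for this sum, Itga1 and Itga4. Over all genes tested, 8974 of 18134 were above 0, and that criterion took 1.47% as higher and 1.49% as lower. Of the other lists, the skeletal muscle markers had 9 of 18 above 0 and 3 higher. The platelet markers had 3 of 4 above 0 and 1 higher. The keratinocyte markers had 0 of 8 above 0 and 3 lower, the mast cell markers 1 of 7 and 2 lower. The T lymphocyte and the Schwann cell markers each had 2 of 9 above 0. The tenocyte markers had 7 of 8 above 0, with a median of 0.29 beside 0.27 for the endothelial markers. Above 0 were also 5 of 9 macrophage, 4 of 5 B lymphocyte, 4 of 9 cartilage, 2 of 5 neutrophil and 2 of 6 erythroid markers. The part of these cell types in the differences was not tested.

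The neighbouring gene of Itga1 on chromosome 2, Itga2, encodes the alpha 2 subunit of another collagen receptor. Itga2 had 15.9, 13.5 and 25.1 CPM in PM replicates 1 to 3, against 17.3, 16.0 and 3.08 CPM in non-PM replicates 1 to 3. Apart from the high value of PM replicate 3 and the low value of non-PM replicate 3, the values lay between 13.5 and 17.3 CPM. Itga11, the collagen receptor subunit of fibroblasts, was the most abundant of the 4 collagen-binding alpha subunits and had 137, 65.1 and 85.9 CPM in the PM group vs. 75.1, 138 and 36.6 CPM in the non-PM group (log2 fold change 0.21 ± 0.51, unadjusted p = 0.696, edgeR, or -0.17 without non-PM replicate 3). A separate record described as similar to integrin alpha 11 held 48 to 162 counts in the PM libraries vs. 19 to 105 in the non-PM libraries, beside 3495 to 9069 vs. 1650 to 7288 for Itga11, and reads may have been divided between them.

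Itga10, the alpha 10 subunit of cartilage cells, varied 4.41-fold between libraries without following the groups. Its values were 30.4, 80.1 and 88.5 CPM in PM replicates 1 to 3, against 134, 44.1 and 40.8 CPM in non-PM replicates 1 to 3. The 9 cartilage markers summed to 2200, 5850 and 4440 CPM in the PM group vs. 10800, 1940 and 713 CPM in the non-PM group, and non-PM replicate 1 was the highest library for both. The beta 3 subunit gene Itgb3, known from platelets, osteoclasts and vessels, had the widest range of the members with a count in every library, at 10, 20 and 40 CPM in PM replicates 1 to 3 against 32.7, 9.26 and 1.75 CPM in non-PM replicates 1 to 3. Its partner in platelets, Itga2b, stayed between 3.44 and 4 CPM in the PM group vs. 2.90 to 6.08 CPM in the non-PM group, and was highest in non-PM replicate 2.

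Itga4 had the largest positive log2 fold change of the members, and its value depended on the unit. The alpha 4 subunit is carried by lymphocytes, monocytes and some mesenchymal cells and binds VCAM-1 and fibronectin. In counts its levels were 5.70, 9.34 and 12.7 CPM in PM replicates 1 to 3, against 6.74, 4.09 and 1.97 CPM in non-PM replicates 1 to 3, with PM replicate 1 below non-PM replicate 1. The log2 fold change was 1.12 ± 0.50, and it did not pass the relaxed criterion (unadjusted p = 0.062, adjusted p = 0.942, edgeR). In FPKM the same gene had 1.08, 1.52 and 2.39 in the PM group and 0.564, 0.387 and 0.131 in the non-PM group, with no overlap. On log2(FPKM + 1) the difference was 0.95 ± 0.21 (unadjusted p = 0.00322, adjusted p = 0.987, limma), which passed the relaxed criterion, and the ratio of group means was 4.61 in FPKM beside 2.17 in CPM. On counts Itga4 passed with DESeq2 (1.11, unadjusted p = 0.0352). In edgeR it passed with PM replicate 1 left out (1.37, unadjusted p = 0.0434) or non-PM replicate 1 left out (1.60, unadjusted p = 0.0197). Leaving out either library removed the overlap of the groups in CPM. Itga4 did not pass in edgeR without PM replicate 2 (1.11, unadjusted p = 0.119) or 3 (0.82, unadjusted p = 0.194). Nor did it without non-PM replicate 2 (1.09, unadjusted p = 0.117, edgeR) or 3 (0.76, unadjusted p = 0.109). It also failed with the replicate block (unadjusted p = 0.124, edgeR) and with a skeletal muscle score as covariate (1.18, unadjusted p = 0.11).

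The number of counts behind a unit of FPKM reflects the length of the transcripts to which the reads were assigned. Divided by the library's median over genes, it was 1.92, 2.04 and 1.90 for Itga4 in PM replicates 1 to 3, against 4.06, 4.07 and 4.07 in non-PM replicates 1 to 3. Of 13738 genes with at least 50 counts in every library, 4 (0.0291%) were called by this ratio. The call asked for groups without overlap and geometric means 1.5-fold or more apart. The other genes were Mx2, Hykk and Zfp710. For Zfp710 the groups nearly met, with 2.36 in PM replicate 2 vs. 2.26 in non-PM replicate 3. So did those of Hykk, with 1.71 in PM replicate 3 vs. 1.74 in non-PM replicate 2. The comparison was chosen after the values had been seen. Among the 36 members measured in this way the median of the highest over the lowest library was 1.006, and after Itga4 (2.149) the next were Itgb7 (1.236) and Fermt3 (1.135). The deposited table lists 4 transcript records for Itga4 and gives no value per transcript, and the part of assembly and of isoform use in the ratio was not tested.

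**Figure D4:**
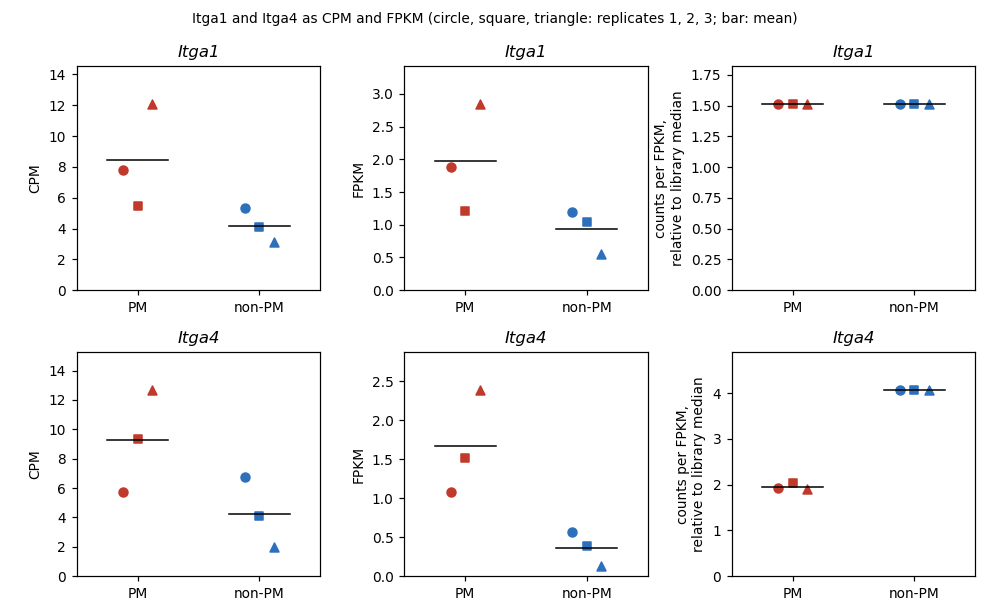
Itga1 (top) and Itga4 (bottom) in each library as CPM, as FPKM, and as counts per unit FPKM relative to the library median, with PM left of non-PM, linear axes from 0, and a bar at the group mean. The right panels show Itga1 at 1.51 to 1.52 in all 6 libraries and Itga4 at 1.90 to 2.04 in PM and 4.06 to 4.07 in non-PM libraries.

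The sequences before the start sites of these genes are shown because Itga1 and Itga4 had the largest positive log2 fold changes and Itgb1 is the partner of both products. Each window of 300 bases, most of them upstream of the RefSeq start, is from build GRCr8 (the deposited table used Rnor_6.0), 5′ to 3′ on the gene's strand. Capitals mark matches to motifs searched on both strands. These were the cAMP response element, spelled TGACGTCA, and its half-site, spelled TGACG, which lies within every full element. The others were the AP-1 site, spelled TGANTCA, and the GC box of Sp factors, spelled GGGCGG. The CCAAT box and the TATA box were searched too, the TATA box by the letters TATAAA.
Itga1 (chr2:48545234-48545533, minus strand): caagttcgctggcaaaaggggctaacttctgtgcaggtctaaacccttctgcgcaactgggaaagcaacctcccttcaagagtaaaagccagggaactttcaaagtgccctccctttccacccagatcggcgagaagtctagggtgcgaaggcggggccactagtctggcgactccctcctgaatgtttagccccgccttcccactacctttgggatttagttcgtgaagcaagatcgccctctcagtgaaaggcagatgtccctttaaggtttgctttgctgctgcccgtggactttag
Itga4 (chr3:84569765-84570064, plus strand): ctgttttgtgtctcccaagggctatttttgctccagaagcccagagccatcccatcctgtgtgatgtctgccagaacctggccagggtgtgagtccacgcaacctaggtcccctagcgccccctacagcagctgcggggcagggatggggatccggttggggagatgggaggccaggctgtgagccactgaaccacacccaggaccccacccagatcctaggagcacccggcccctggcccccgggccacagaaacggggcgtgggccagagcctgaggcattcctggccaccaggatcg
Itgb1 (chr19:73602027-73602326, plus strand): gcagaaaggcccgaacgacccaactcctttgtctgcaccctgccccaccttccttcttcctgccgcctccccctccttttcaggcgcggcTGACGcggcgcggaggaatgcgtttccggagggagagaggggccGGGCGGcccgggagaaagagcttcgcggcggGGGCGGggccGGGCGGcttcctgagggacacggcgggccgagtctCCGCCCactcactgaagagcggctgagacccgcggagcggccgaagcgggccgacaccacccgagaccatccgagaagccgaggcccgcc
The windows of Itga1 and Itga4 held none of these letters, and that of Itgb1 held 4 GC boxes and 1 half-site. Promoter windows matched 28 of the 38 members. The GC box was found in 16 of the 28 (57.1%), beside 34.9% of 27457 gene promoters, and their median GC content was 58.7% beside 52.3%. The half-site was found in 4 of them (14.3%, beside 22% of all), in Itga8, Itgae, Itgb1 and Tln2. The full cAMP response element was in 0 of the 28, beside 1.91% of all promoters. The AP-1 site was in 1 (3.57%, beside 7.33%), the CCAAT box in 7 (25%, beside 37.7%) and the TATA box in 1 (3.57%, beside 14.3%).

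Alpha 9, which binds tenascin and osteopontin, was the steadiest of the members whose groups did not overlap. Itga9 had 52.2, 43.2 and 50.3 CPM in PM replicates 1 to 3, against 42.4, 41.7 and 40.7 CPM in non-PM replicates 1 to 3, a log2 fold change of 0.22 ± 0.13 (unadjusted p = 0.135, edgeR) that lay between 0.17 and 0.30 with 1 library left out. Over the 6 libraries its coefficient of variation was 10.8%, beside 33% for the median member and 25.6% for the median gene tested. Only Itgae, at 10.5%, varied less among the members, with 7.70 to 9.33 CPM in the PM group vs. 7.07 to 9.18 CPM in the non-PM group. Itgae is the alpha E subunit of lymphocytes that bind epithelia.

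Of the laminin receptors, Itga3 and Itga6 were highest in PM replicate 1, and Itga7 did not share that pattern. Itga3 had 40.4, 23.2 and 22.8 CPM in PM replicates 1 to 3, against 15.5, 22.4 and 22.7 CPM in the non-PM group. Here PM replicate 3 was barely above non-PM replicate 3. The log2 fold change was 0.51 ± 0.28 (unadjusted p = 0.117, edgeR), or 0.19 without PM replicate 1. Itga6 had 149, 89.8 and 122 CPM in the PM group vs. 89.5, 90.1 and 104 CPM in the non-PM group (0.34 ± 0.22, unadjusted p = 0.172, edgeR). Its partner Itgb4 had 359, 205 and 259 CPM vs. 148, 289 and 183 CPM (0.41 ± 0.34, unadjusted p = 0.271), and Itgb1 had 782, 551 and 622 CPM vs. 514, 594 and 519 CPM (0.26 ± 0.25, unadjusted p = 0.336, edgeR). The sum of endothelial markers was likewise highest in PM replicate 1, at 1660 CPM, and its part in these values was not tested. Without PM replicate 1 the log2 fold change was 0.16 for Itga6, 0.17 for Itgb4 and 0.11 for Itgb1. Itgb4 was highest within the non-PM group in replicate 2, which had 800 CPM of keratinocyte markers, and its log2 fold change was 0.74 without that library. The part of keratinocytes was not tested.

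Non-PM replicate 3, the library richest in skeletal muscle, was the highest library for 8 of the 38 members (21.1%), beside 29.8% of all genes tested. Itga7, the alpha subunit by which muscle fibres grip laminin, had 106, 124 and 113 CPM in PM replicates 1 to 3, against 105, 68 and 173 CPM in the non-PM group. The summed skeletal muscle markers in the same order were 30900, 82800 and 43400 CPM in the PM group vs. 49000, 20800 and 143000 CPM in the non-PM group, so both were lowest in non-PM replicate 2 and highest in non-PM replicate 3. The log2 fold change of Itga7 was -0.01 ± 0.34 (unadjusted p = 0.97, edgeR), and it was 0.39 without non-PM replicate 3. Itgb6, a beta subunit that activates TGF-beta and is best known in epithelia, had 27.9, 55.0 and 31.5 CPM in PM replicates vs. 53.6, 27.4 and 109 CPM in non-PM replicates, with the same lowest and highest library as Itga7. Its log2 fold change was -0.73 ± 0.52 (unadjusted p = 0.205, edgeR). It was lower by the relaxed criterion without non-PM replicate 2 (-1.09, unadjusted p = 0.0376, edgeR) and stood at -0.09 without non-PM replicate 3. The fit without non-PM replicate 2 called 1 member (2.63%), beside 6.51% of all genes. Talin 2, Tln2, the talin of striated muscle, had 71.4, 120 and 87.4 CPM vs. 62.8, 52.9 and 126 CPM. Singled out after its values were seen, it was higher by the relaxed criterion without non-PM replicate 3 (0.67, unadjusted p = 0.0406, edgeR). That fit called 2 members (5.26%), beside 4.42% of all genes. In a fit with a skeletal muscle score as covariate 4 members passed the relaxed criterion, of which Itga1 (1.15), Itga11 (0.80) and Parva (0.57, singled out for this call) were higher and Itgb6 (-1.0) was lower. This is 10.5% of members, beside 11.4% of all genes in that fit, and the smallest adjusted p of the members was 0.424.

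**Figure D5:**
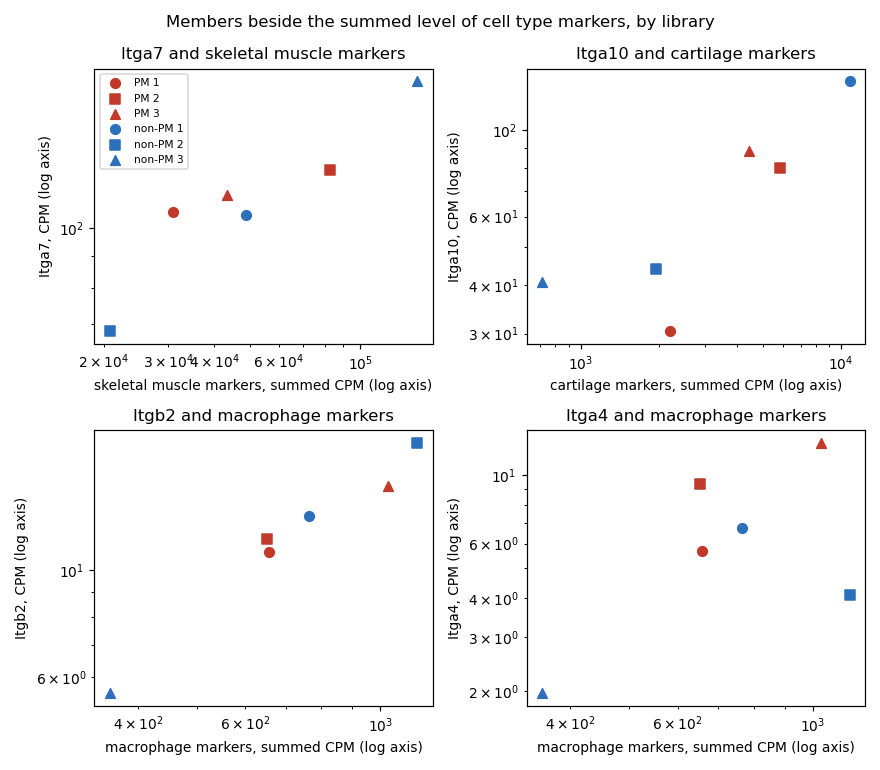
CPM of 4 members (vertical axes, log scale) against the summed CPM of a marker list (horizontal axes, log scale) in the 6 libraries, with PM in red and non-PM in blue. Itga7 and the muscle markers are both lowest in non-PM replicate 2 and highest in non-PM replicate 3, and Itga4 and the macrophage markers are both lowest in non-PM replicate 3 (1.97 and 360 CPM).

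The integrins of white blood cells ranged widely within the non-PM group. Itgb2, the beta subunit shared by the leukocyte receptors, had 10.9, 11.6 and 14.9 CPM in PM replicates 1 to 3, against 12.9, 18.3 and 5.56 CPM in non-PM replicates 1 to 3. The 10 macrophage markers, of which Marco had no count, summed to 658, 652 and 1030 CPM vs. 764, 1150 and 360 CPM, with the highest and lowest library the same as for Itgb2. Itgam, the alpha subunit of the complement receptor of macrophages and neutrophils, had 6.72, 8.62 and 14.8 CPM vs. 11.2, 13.2 and 3.54 CPM (0.11 ± 0.52, unadjusted p = 0.84, edgeR, or -0.29 without non-PM replicate 3). Itgal, the alpha subunit of the LFA-1 receptor of lymphocytes, had 6.81, 9.44 and 15.4 CPM vs. 10.2, 9.16 and 2.70 CPM. Itgax, known from dendritic cells, had 6.08, 10.2 and 6.92 CPM vs. 12.4, 8.18 and 1.68 CPM. Itgam, Itgax, Itgal and Itgad, 4 of the 5 leukocyte alpha subunits, and Itgb7, which pairs with alpha 4 and alpha E, were lowest in non-PM replicate 3. Fermt3, the kindlin of blood cells, was too, with 11.2 to 18.9 CPM in the PM group vs. 6.58 to 22 CPM in the non-PM group. The T lymphocyte markers summed to 69.0, 79.7 and 118 CPM in PM replicates vs. 130, 115 and 36.2 CPM in non-PM replicates. Itga4 shared its lowest library, non-PM replicate 3, with both sums, while its highest was PM replicate 3, that of the macrophage sum non-PM replicate 2 and that of the T lymphocyte sum non-PM replicate 1. The part of these cells in the values of Itga4 was not tested.

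Itgav, Itgb5 and Itgbl1 were lowest in the muscle-rich library, non-PM replicate 3, whereas Itgb6 and Itgb8, other beta partners of alpha v, were highest there. Itgav, the alpha v subunit of the vitronectin and latent TGF-beta receptors, had 129, 122 and 170 CPM in PM replicates 1 to 3, against 138, 128 and 67.7 CPM in non-PM replicates 1 to 3 (0.33 ± 0.31, unadjusted p = 0.322, edgeR, or 0.06 without non-PM replicate 3). Its partner Itgb5 had 177, 131 and 204 CPM vs. 176, 208 and 88.7 CPM. Itgbl1, a secreted protein with integrin-like repeats that does not form a receptor, had 201, 90.7 and 300 CPM vs. 121, 246 and 56.9 CPM. Its log2 fold change was 0.48 ± 0.62 (unadjusted p = 0.47, edgeR), with a range of 0.04 to 1.15 when 1 library was left out. Itga8, an RGD-binding subunit, had 28.7 to 44.3 CPM vs. 25.4 to 46.9 CPM, and Itgb8, which activates TGF-beta with alpha v, 7.32, 5.85 and 15 CPM vs. 5.75, 10.4 and 16.3 CPM. For the fibronectin receptor Itga5 the log2 fold change was 0.15 ± 0.24 (unadjusted p = 0.539, edgeR), and it was -0.09 without PM replicate 1.

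Most adaptors were abundant, and in the fit on group alone with all libraries 0 of the 11 passed the relaxed criterion (edgeR). Kindlin 2, Fermt2, had 270, 245 and 251 CPM in PM replicates 1 to 3, against 257, 189 and 353 CPM in non-PM replicates 1 to 3 (-0.06 ± 0.27, unadjusted p = 0.835, edgeR). Talin 1, Tln1, the main talin outside muscle, had 323, 333 and 341 CPM vs. 305, 261 and 513 CPM. The PM libraries of both genes lay within the range of the non-PM libraries. Paxillin, Pxn, had 159 to 170 CPM vs. 144 to 233 CPM, zyxin, Zyx, had 128 to 175 CPM vs. 127 to 162 CPM (-0.06 ± 0.21, unadjusted p = 0.803, edgeR) and vinculin, Vcl, had 194 to 240 CPM vs. 157 to 252 CPM. Focal adhesion kinase, Ptk2, had 104, 76.1 and 92.8 CPM vs. 78.0, 86.1 and 77.6 CPM (0.17 ± 0.17, unadjusted p = 0.346, edgeR), and Ilk had 176, 132 and 138 CPM vs. 133, 163 and 124 CPM (0.09 ± 0.21, unadjusted p = 0.682). Parva, the parvin that joins Ilk to actin, had 109 to 181 CPM vs. 83.3 to 167 CPM. Fermt1 was close to undetected outside non-PM replicate 2, with 6, 31 and 16 reads counted in the PM libraries vs. 43, 147 and 0 in the non-PM libraries, each in replicate order. The count of 0 allows up to 0.0665 CPM, and the 147 counts lay in the library with most keratinocyte markers. Its log2 fold change was -1.93 ± 1.45 (unadjusted p = 0.227, edgeR). With non-PM replicate 2 left out it was -0.37. With replicate 3 of that group left out instead, it passed the relaxed criterion as lower (-2.53, unadjusted p = 0.0276, edgeR), in a fit that called 5.26% of members and 4.42% of all genes.

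Other genes of the adhesion machinery, 48 genes listed apart from the members, gave 2 higher by the relaxed criterion, 0 lower and 45 not past it among 47 tested, with a median log2 fold change of 0.21. Sorbs2, an actin-binding adaptor of the vinexin family, had 132, 117 and 109 CPM in the PM group and 73.8, 88.0 and 92.0 CPM in the non-PM group (0.49 ± 0.17, unadjusted p = 0.026, adjusted p = 0.942, edgeR). Of 34 symbols of integrin ligands, which include fibronectin, laminins and collagens, 31 were tested, with 23 above 0, a median of 0.26 and 0 past the relaxed criterion in either direction (edgeR). In the adhesion machinery list 36 of the 47 were above 0. Beside both lists, 8974 of all 18134 genes tested were above 0, with a median of -0.0. The relaxed criterion took 1.47% of all genes as higher and 1.49% as lower.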

How the data were processed

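Per the labels, a stranded mRNA kit and paired reads were used. Tools listed by the submitters are HISAT2 2.1.0, FastQC 0.11.7 and Trimmomatic 0.38, with build Rnor_6.0, and the study's methods add StringTie. The deposited table holds whole-number counts per gene, and FPKM as the authors computed it. Strand setting and reads that match several loci are not given in the sources used here. Columns were matched to sample titles. The labels do not state which animal each sample came from. The study's methods give n = 3 per group for RNA-seq of the tendons and describe surgery on the right leg, without matching samples to animals. The p-values reflect only how these samples vary, which may be technical. The closest pair of libraries had a chi-square of 258.9 per degree of freedom, far above counting error, which does not show whether samples came from separate animals.

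Tests across the whole table used edgeR 4.0.16 in R 4.3.3 (filterByExpr, TMM, two-sided quasi-likelihood test, group only). SE was obtained by dividing the absolute log2 fold change by the root of F. CPM uses TMM-scaled totals. Alternatives were RLE factors, no filter, DESeq2 1.42.0, limma 3.58.1 on log2(FPKM + 1) and log2(FPKM + 0.1) (which understates changes of low genes), a replicate block, a muscle score as covariate, and each library left out. The script of the edgeR fit was tested on simulated data. Intervals and floors cover counting error only.

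Fold changes with SE and p are given for members past the relaxed criterion, the 10 next by p and the one with the highest FPKM in each role, and other members singled out are marked. Members, lists and tests were chosen with earlier results of these data known. Promoter sequences are from RefSeq (GRCr8), matched by gene ID. For 1 gene of the adhesion machinery list past the relaxed criterion, values are not reported here.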

Additional observations from a re-analysis of the deposited data

How the results depend on the processing

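Among the alternatives run, the count of members higher by the relaxed criterion was 1 with RLE factors or no filter, 0 with the replicate block, 3 with the muscle score as covariate and 2 with DESeq2 and with limma on either FPKM scale (Itga1 and Itga4), and 0 to 2 with 1 library left out. The count of lower members was 1 with the covariate and 0 to 1 with 1 library left out. None passed adjustment in any of them. Over all genes the criterion called 537 genes (2.96%), against 155 (0.855%) with the replicate block, 2059 (11.4%) with the covariate and 821 (4.53%) with DESeq2. It called 292 (1.61%) and 319 (1.76%) with limma at pseudocounts of 1 and 0.1. Without PM replicates 1, 2 and 3 in turn it called 433 (2.32%), 514 (2.76%) and 206 (1.11%). Without non-PM replicates 1, 2 and 3 in turn it called 605 (3.25%), 1209 (6.51%) and 826 (4.42%). Of the 38 members, 1 is 2.63% and 2 are 5.26%. The deviations from group means of same-numbered libraries correlated at -0.17, -0.39 and -0.31, and those of other pairs at -0.02 to 0.3. Such deviations sum to 0 within a group of 3, so these values are not independent of each other. Whether the titles' numbers pair the samples was not tested. With 1 library left out in turn, the log2 fold change of 22 of the 38 members changed sign. Values for members with statistics in the text follow. For Itga7 the log2 fold change was 0.09 with the replicate block, 0.16 and 0.17 with limma at pseudocounts of 1 and 0.1, and -0.28 to 0.39 with 1 library left out. With limma at either pseudocount it was 0.08 for Fermt2 and 0.03 for Zyx. With 1 library left out the ranges were -0.25 to 0.18 for Fermt2, -0.05 to 0.21 for Ilk, -0.17 to 0.78 for Itga11, -0.09 to 0.32 for Itga5, -0.29 to 0.44 for Itgam and -0.22 to 0.03 for Zyx. Itga1 lay between 0.68 and 1.26, and the members' median between 0.09 and 0.23. The cause of these shifts was not tested. There were 3 libraries a group. Itgad (5 to 22 counts) and Itgbl1 (2570 to 17091 counts) had the same SE of 0.62. It was 1.45 for Fermt1 (0 to 147 counts) and 0.13 for Itga9 (1837 to 3448 counts). What limited the precision was not tested.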
